A study of Mus musculus with 17 samples.

Results

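The transcripts described here encode 7 subunits of the GABA-A receptor: Gabra2, Gabra3, Gabra4 and Gabra5 (α subunits), Gabrb1 and Gabrb2 (β subunits) and Gabrd (the δ subunit). They were taken by gene symbol from a table of 55453 distinct symbols, and all 7 passed the filter on low values (TPM, the length-scaled share of a transcript in its library, had to average 1 or more across all samples) as did 16265 genes in all. RNA came from bulk cortex of 17 male C57BL/6J mice, a tissue that holds neurons, glia, vessels and blood. The groups were hemizygous Hnrnph2 knockout mice (KO) at 8 weeks, hemizygous R206W knockin mice at 8 weeks and hemizygous P209L knockin mice at 3 weeks, and each line had age-matched wild-type littermates as controls, with 3 mice per group and 2 for the P209L controls. Hnrnph2 lies on the X chromosome and encodes an RNA-binding protein, so a male carries the altered allele alone. According to the study's methods, the KO allele is an indel whose frameshift introduces a premature stop codon, and the knockin alleles are point mutations at the nuclear localization signal. Both knockin alleles and the KO allele are constitutive, so every cortical cell type carries them. Age and line go together in this design, because P209L mice were the only 3-week animals.

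GABA-A receptors are chloride channels opened by GABA, the main inhibitory transmitter of the cortex. Each channel is assembled from several subunits, commonly α subunits with β subunits and a γ or δ subunit, and the choice of α subunit and of γ or δ sets where the channel sits and how fast it closes. Channels that join α2 or α3 with a γ subunit serve mainly fast synaptic inhibition, whereas those with α4 and δ, or with α5, lie largely outside synapses and carry tonic inhibition. In the rodent forebrain β2 is known to rise as the cortex matures, whereas α2, α3 and α5 are prominent early in life.

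The genes sit in clusters, here by GENCODE M21 on build GRCm38. Gabra2 (chr5:70957597-71095849), Gabra4 (chr5:71569749-71658308) and Gabrb1 (chr5:71658113-72149037) lie with Gabrg1 on chromosome 5, where Gabra4 and Gabrb1 run in opposite directions and share 196 bases. Gabra5 (chr7:57407672-57510059) lies with Gabrg3 on chromosome 7 and shares 2270 bases with Gm9962, an antisense gene. Gabrb2 (chr11:42419757-42629028) lies with Gabra6 on chromosome 11. Gabra3 (chrX:72432681-72656848) is on chromosome X, between Gabre and Gabrq, and Gabrd (chr4:155384980-155398112) is the sole subunit gene at its place on chromosome 4. The library kit marks strand, but the strand setting used for counting was not given in the sources used here, so reads from stretches that these genes share with genes on the opposite strand may have been split, and the levels of Gabra4, Gabra5 and Gabrb1 are uncertain to that extent.

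The promoters of 4 of these genes are shown because Gabrb2, Gabra3 and Gabra2 were lower at 3 weeks and Gabra5 and Gabra3 gave the smallest unadjusted p-values in P209L mice. Each line gives the 150 bases upstream of a RefSeq start site (GRCm38.p6), 5′ to 3′ on the strand of the gene, with matches to a TATA box (TATAAA) or a CCAAT box (CCAAT) on either strand in capitals. RefSeq windows were found for 6 of the 7 genes, and where a gene had several the most upstream is shown.
Gabrb2, chr11:42420290-42420439, plus strand: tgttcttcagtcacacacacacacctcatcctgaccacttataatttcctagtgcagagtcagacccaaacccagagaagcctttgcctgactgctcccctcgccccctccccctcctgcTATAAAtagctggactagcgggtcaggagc
Gabra3, chrX:72656920-72657069, minus strand: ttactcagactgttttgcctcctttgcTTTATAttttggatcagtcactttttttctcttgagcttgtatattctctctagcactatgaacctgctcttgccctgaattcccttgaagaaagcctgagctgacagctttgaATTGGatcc
Gabra2, chr5:71095850-71095999, minus strand: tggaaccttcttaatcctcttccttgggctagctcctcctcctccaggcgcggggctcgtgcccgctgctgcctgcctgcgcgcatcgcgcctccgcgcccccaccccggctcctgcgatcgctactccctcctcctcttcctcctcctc
Gabra5, chr7:57510060-57510209, minus strand: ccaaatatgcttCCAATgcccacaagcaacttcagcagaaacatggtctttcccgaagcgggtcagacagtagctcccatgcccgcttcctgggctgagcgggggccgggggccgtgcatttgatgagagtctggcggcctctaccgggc
The Gabrb2 window shown holds TATAAA on the strand of the gene, and the Gabra3 window shown holds TATAAA and CCAAT on the other strand. These are matches of letters, and whether any of them acts as a promoter element was not tested. The Gabra5 window holds CCAAT on its own strand, and the Gabra2 window holds neither motif. TATAAA was present in 7.57% and CCAAT in 24.5% of all 32851 windows of the same length. The GC content of the windows shown was 68.7% for Gabra2, 60.7% for Gabra5, 54% for Gabrb2 and 40.7% for Gabra3. Gabrb2 has another 2 windows without TATAAA, 1 of which holds CCAAT on the other strand, with a GC content of 58% and 27.3%. The second Gabra3 window (39.3% GC) holds CCAAT in 2 places and no TATAAA. It overlaps the window shown and shares a CCAAT match with it. Gabrb1, which was also lower at 3 weeks, has 2 windows (61.3% and 49.3% GC) with neither motif.

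The targeted gene matched the labels. Hnrnph2 was at 21.3 to 24.4 TPM in the 3 KO mice and at 80.5 to 145 TPM in their 3 controls, a log2 difference of -2.30 (SE 0.170, limma, adjusted p = 8.64e-06). The neuronal and glial markers of cortex were present in every library, and no marker gene on the lists used was at 0 throughout a group. Some libraries stood apart from the rest. P209L control 2 held 1740 TPM of Ttr (transthyretin, the leading transcript of choroid plexus) against 0.67 to 23.2 TPM in the other 16 libraries, and the other 4 choroid plexus markers (Folr1, Kcne2, Kl, Clic6) were also highest there. P209L 2 held 18.4 TPM of Spink8 and 8.38 TPM of Fibcd1, both markers of the hippocampal formation, against 0.61 to 7.29 TPM and 1.83 to 4.55 TPM elsewhere. C1ql2 of the same list was also highest there (1.86 TPM). Wfs1 (21.0 TPM) and Prox1 (1.77 TPM) lay below their medians over the 17 samples (25.5 and 3.04 TPM). The 6 listed markers summed to 51.5 TPM in P209L 2 and to 52.2 TPM in KO 3. KO 1 held 3.16 TPM of Cbln3 and 3.08 TPM of Gabra6, transcripts of cerebellar granule cells, against at most 0.31 and 0.13 TPM elsewhere. The 5 listed markers of these cells, without Gabra6, summed to 21.2, 16.6 and 22.7 TPM in KO 1, 2 and 3. In the KO controls they summed to 11.1 to 13.3 TPM. All 3 of these markers that were tested were higher in KO mice at an unadjusted p under 0.05 (limma, 4.08% of all genes). None was called. In KO control 1, mitochondrial transcripts made up 20.1% of the TPM (10.7% to 15.4% elsewhere) and the excitatory neuron markers had their lowest 8-week sum, at 2447 TPM. Values without KO control 1 or P209L control 2 are given beside some of the subunit differences and gene list counts that they moved, but not all. Leaving out KO 1 or P209L 2 changed no call of a subunit in the comparisons that include them.

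**Figure D1:**
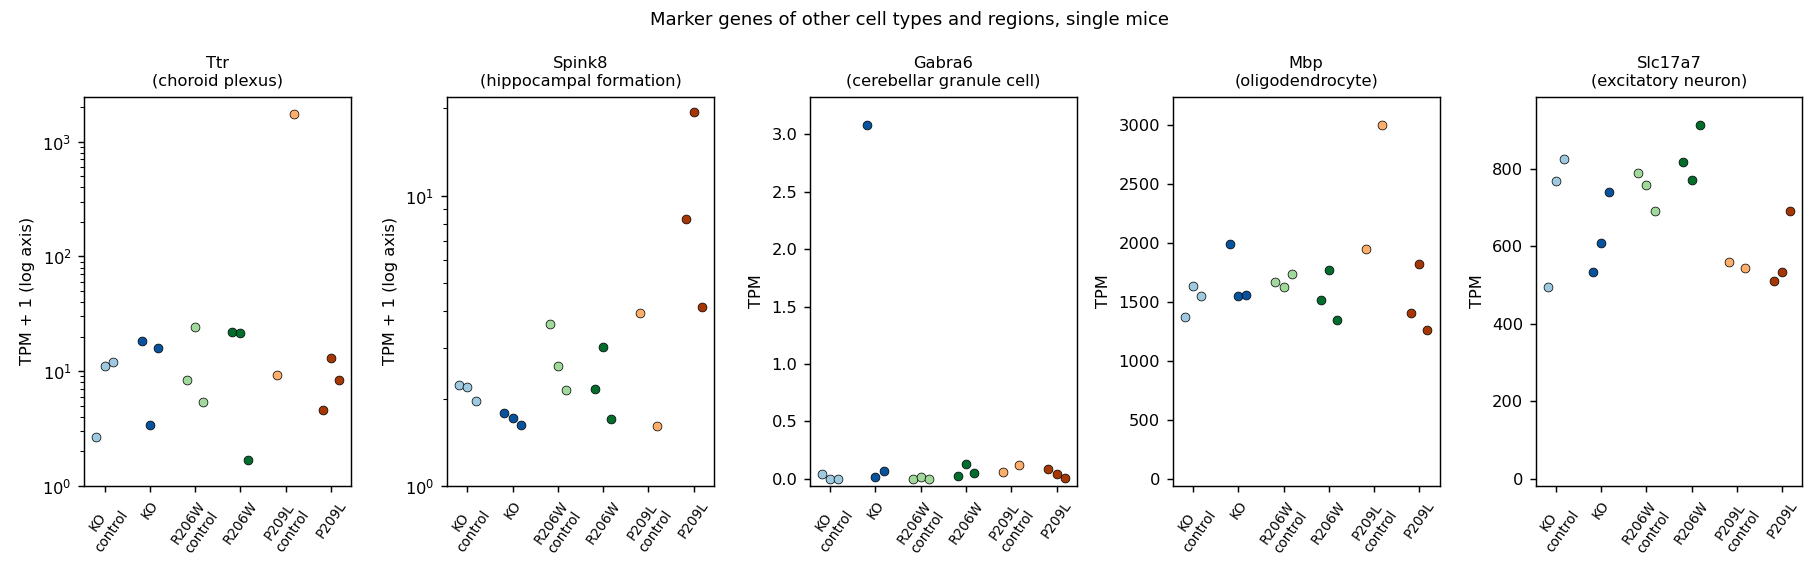
Levels of 5 marker genes in single mice, as TPM + 1 on a log axis for Ttr and Spink8 and as TPM on a linear axis for Gabra6, Mbp and Slc17a7, by group. P209L control 2 stands far above all other mice for Ttr (1740 TPM) and highest for Mbp, P209L 2 is highest for Spink8 (18.4 TPM) and KO 1 is highest for Gabra6 (3.08 TPM).

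In the 8-week wild-type cortex, Gabra3 and Gabrb2 were the most abundant of the 7 transcripts, and Gabra2 and Gabrb1 the least. TPM is scaled by transcript length, so levels can be set side by side between genes. Over the 6 wild-type mice of both 8-week lines, Gabra3 was at 106 ± 9.23 TPM (SD, n = 6), Gabrb2 at 101 ± 15.5, Gabra4 at 65.7 ± 5.38, Gabrd at 56.8 ± 12.1, Gabra5 at 35.2 ± 4.20, Gabrb1 at 26.2 ± 2.81 and Gabra2 at 26.0 ± 0.692. Neighbours in this order had overlapping ranges except at the step from Gabrb2 down to Gabra4 and at that from Gabra5 down to Gabrb1. The 3-week wild-type cortex had another order: Gabra3 at 68.8 ± 12.5 TPM (SD, n = 2), Gabrd at 61.1 ± 6.51, Gabra4 at 53.9 ± 8.74, Gabra5 at 33.6 ± 10.3, Gabrb2 at 26.9 ± 4.77, Gabra2 at 20.7 ± 1.46 and Gabrb1 at 14.2 ± 2.07. Gabrb2 thus was among the 2 highest of the 7 at 8 weeks and among the 3 lowest at 3 weeks, where its range overlapped that of Gabra5. The sum of all 7 was 417 ± 44.4 TPM in the 8-week controls and 279 ± 33.3 TPM in the 3-week controls.

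**Figure D2:**
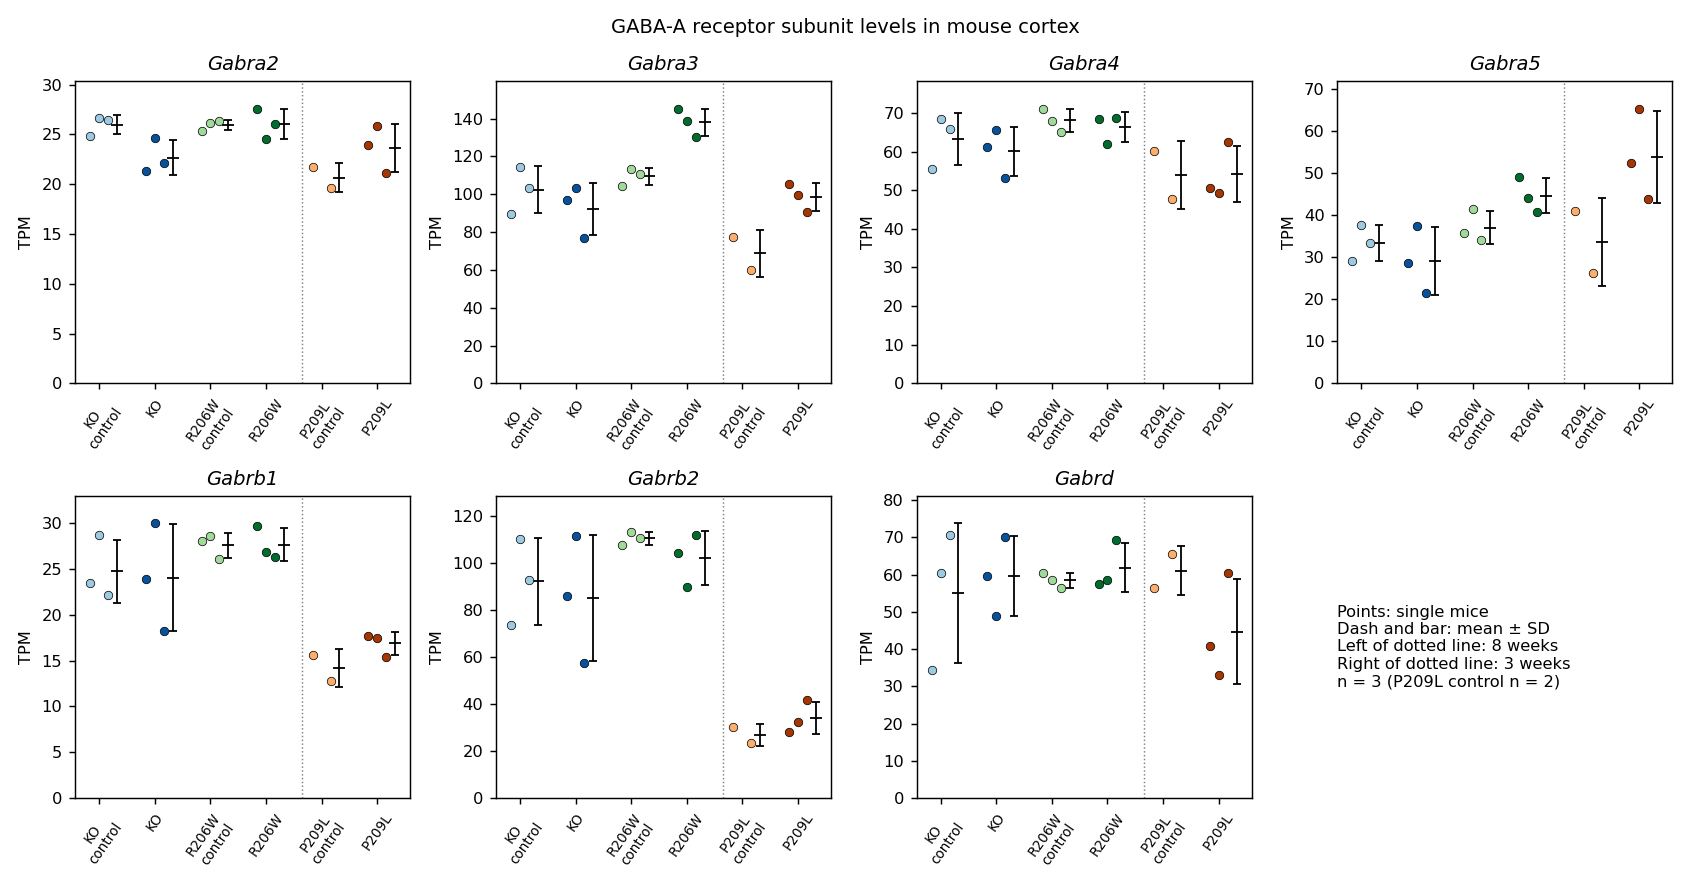
TPM of each of the 7 subunits (linear axes from 0) in every mouse, by group, with the mean and SD beside the points and a dotted line between 8-week and 3-week mice. Gabrb2 is at 57.7 TPM or more in all 12 mice of 8 weeks and at 41.8 TPM or less in all 5 mice of 3 weeks, and Gabra3 is highest in R206W mice.

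The comparison of wild-type mice asked how the subunits differed between the 3-week and 8-week control cortices. Gabrb2, which encodes the β2 subunit of the most common cortical receptors, was 26.5% of its 8-week level at 3 weeks, the largest difference among the 7. Gabrb1 (β1) was at 54.2%, Gabra3 (α3) at 65.0% and Gabra2 (α2) at 79.6% of the 8-week level. Gabra4, Gabra5 and Gabrd did not pass the test. The early prominence of α2, α3 and α5 named above thus did not appear as a called higher level at 3 weeks. Younger mice were not sampled. This comparison set 2 mice against 6, and age and mouse line cannot be told apart in it.

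The 2 P209L controls had 30.3 and 23.5 TPM of Gabrb2. The KO controls had 73.5, 110 and 92.9 TPM, and the R206W controls 108, 113 and 111 TPM. No 3-week value came near an 8-week one, and the log2 difference on the scale of TPM + 1 was -1.87 (SE 0.209, limma, adjusted p = 3.07e-05). The mutant mice showed the same separation: Gabrb2 was at 28.3, 32.2 and 41.8 TPM in the 3-week P209L mice, against 57.7 to 111 TPM in KO mice and 89.6 to 112 TPM in R206W mice.

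Gabrb1 was at 15.7 and 12.7 TPM in the P209L controls and at 22.2 to 28.7 TPM in the 6 controls of 8 weeks, with a median of 27.1 TPM. The groups did not overlap, and the log2 difference was -0.84 (SE 0.150, adjusted p = 0.000749, limma). Among mutants, the P209L mice had 17.7, 17.5 and 15.4 TPM, below all 6 KO and R206W mice (18.3 to 30.0 TPM). For both β subunits, all 5 mice of 3 weeks lay below all 12 mice of 8 weeks.

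Gabra3 was at 77.6 and 60.0 TPM in the P209L controls, at 89.6, 114 and 103 TPM in the KO controls and at 104, 113 and 111 TPM in the R206W controls. The difference was -0.62 on the log2 scale (SE 0.130, limma, adjusted p = 0.00210) with no overlap between the ages. Gabra2 was at 21.7 and 19.6 TPM at 3 weeks and between 24.9 and 26.6 TPM in the 8-week controls, a smaller step (-0.32, SE 0.0977, limma, adjusted p = 0.0200) that also left no overlap. The P209L mutants overlapped with the 8-week mutants in both of these genes.

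Gabra4, whose α4 subunit pairs with δ, had 60.1 and 47.8 TPM at 3 weeks and 55.6 to 71.2 TPM in the 8-week controls. These ranges overlapped (-0.29, SE 0.125, limma, adjusted p = 0.0871). Gabra5 had 40.9 and 26.3 TPM against 29.0 to 41.4 TPM, and its log2 difference of -0.09 (SE 0.200, limma, adjusted p = 0.752) turned to 0.021 with median-of-ratios size factors and to 0.066 with quantile normalization. Gabrd had 56.5 and 65.7 TPM against 34.3 to 70.6 TPM (0.13, SE 0.235, limma, adjusted p = 0.688).

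Of the 7 subunits, 4 thus passed an adjusted p of 0.05, all lower at 3 weeks, against 36.1% of all 16265 genes tested, and the groups did not overlap for 4 of 7 subunits against 38.2% of all genes. The median log2 difference was -0.32 over the 7 and -0.12 over all genes, so the whole table was shifted in the same direction. When that shift was removed with size factors, Gabra2 no longer passed (-0.21, adjusted p = 0.135), while Gabra3, Gabrb1 and Gabrb2 did. Leaving out P209L control 2, the mouse with the Ttr signal, sets 1 mouse of 3 weeks against 6 and takes it to vary like the other groups. Gabrb2 (-1.70, adjusted p = 0.00232) and Gabrb1 were then called but Gabra3 (-0.44, adjusted p = 0.0770) and Gabra2 (-0.25, adjusted p = 0.205) were not, and Gabra5 turned to 0.22. Without KO control 1, Gabra4 joined the called subunits, which made 5.

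Other transcripts of these cortices differed between the ages as well. The excitatory neuron markers summed to 2637 and 2896 TPM in the P209L controls and to 2447 to 4257 TPM in the 8-week controls, and 4 of 8 were called lower, among them Neurod6, Camk2a and Tbr1, against 36.1% of all genes called in either direction. The other 4 also had negative values. Of 6 astrocyte markers, all with negative values, 3 were called lower, as were 3 of 5 microglia and 1 of 5 endothelial markers. In the microglia and endothelial lists, 4 markers had negative values and 1 a positive one. Median log2 differences were -0.52 for excitatory neuron, -0.42 for astrocyte, -0.38 for microglia and -0.55 for endothelial markers, against -0.12 over all genes. Of 8 oligodendrocyte markers, all with positive values, 6 were called higher, with sums of 4229 and 6318 TPM against 2688 to 3768 TPM. All 5 blood markers were called higher, with sums of 2572 and 4884 TPM against 696 to 1252 TPM. Without P209L control 2, the calls were 1 of 8 for both the excitatory neuron and the oligodendrocyte markers and 2 of 5 for blood, with 16.7% of all genes called, and without KO control 1 they were 6 of 8, 6 of 8 and 5 of 5, with 50.3%. In bulk tissue, fewer cells of a type and less RNA per cell cannot be told apart, and the part of these markers in the subunit differences was not tested.

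**Figure D3:**
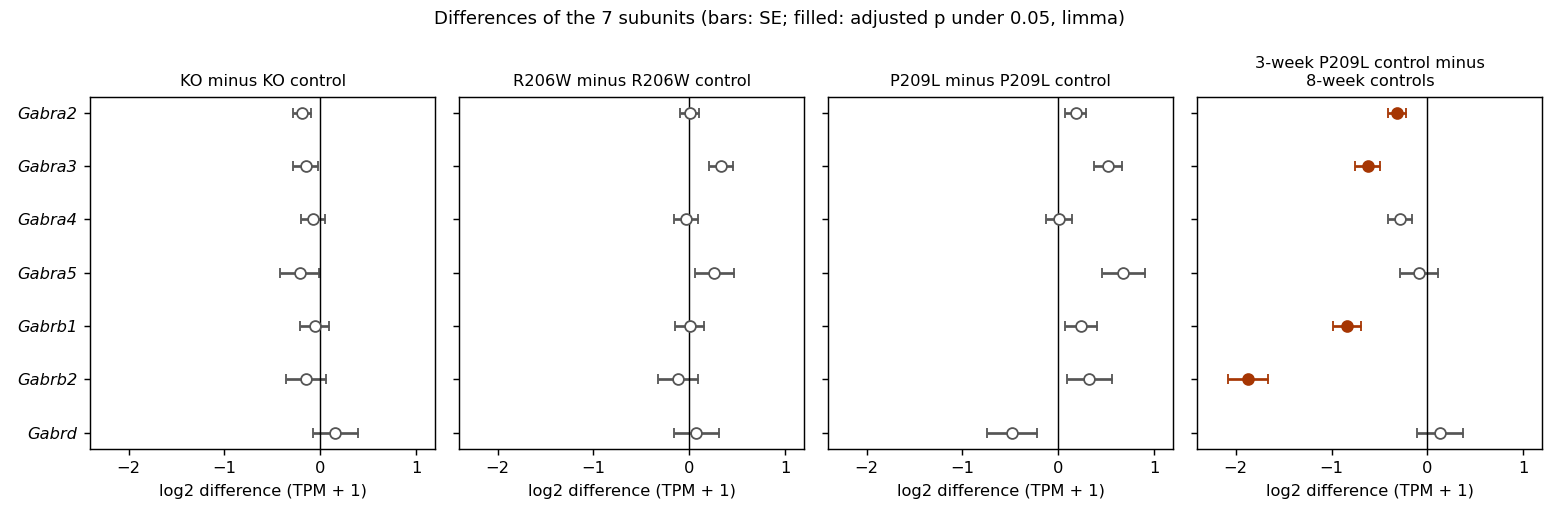
Log2 differences of TPM + 1 (x axis) with SE for the 7 subunits (y axis) in the 3 mutant-to-control comparisons and in the comparison of 3-week P209L controls with the 8-week controls. Filled points passed an adjusted p of 0.05, which 4 subunits did in the age comparison and none did in a mutant line. The Gabra5 point of the age comparison changes sign with size factors or quantile normalization.

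The makeup of the transcripts was computed next, because a share within a library does not depend on the scaling between libraries. Shares were taken among the 4 α and the 2 β subunits described here. In the 8-week controls, Gabrb2 made up 79.3% ± 1.85 (SD, n = 6) of the summed TPM of Gabrb1 and Gabrb2, and in the 3-week controls 65.4% ± 0.717 (SD, n = 2). Over all mice, mutants included, this share was 75.8% to 81.0% at 8 weeks (n = 12) and 61.5% to 73.0% at 3 weeks (n = 5), without overlap. Both β transcripts were lower in the younger cortex, and Gabrb2 by more.

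Among the 4 α transcripts, Gabra3 made up 45.5% ± 0.973 in the 8-week controls and 38.9% ± 0.215 in the 3-week controls. Gabra5 had the opposite pattern, with 15.1% ± 0.819 at 8 weeks and 18.8% ± 2.35 at 3 weeks. The ranges of these 2 shares did not overlap between the ages. The 4 shares have a fixed total, so they do not move independently. The level of Gabra5 at 3 weeks was at 95.5% of its 8-week level. Gabra4 (28.2% ± 1.03 and 30.5% ± 0.757) and Gabra2 (11.2% ± 0.730 and 11.8% ± 1.37) had overlapping ranges.

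**Figure D4:**
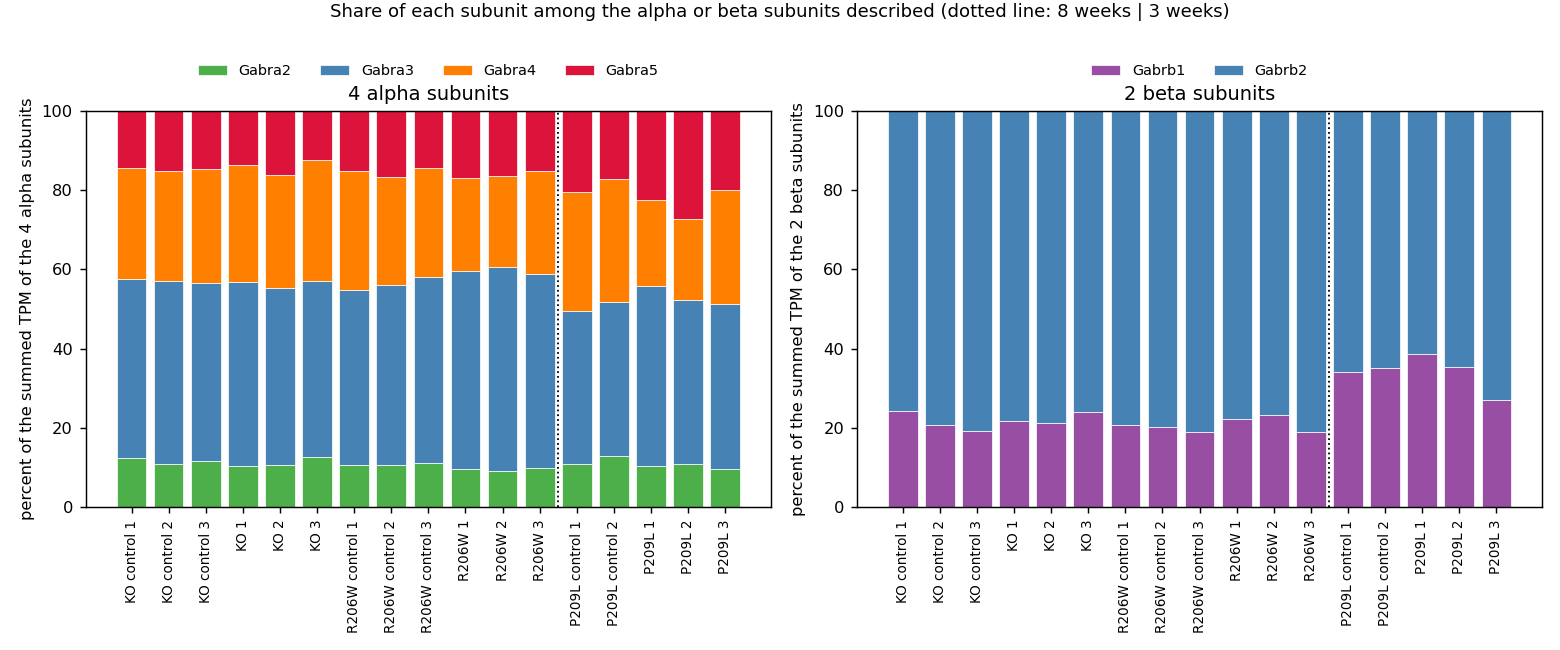
Stacked bars of the share (percent of summed TPM) of each of the 4 α and 2 β subunit transcripts described here in every mouse, in group order, with a dotted line between 8-week and 3-week mice. Gabrb2 makes up 75.8% to 81.0% of the 2 β transcripts to the left of the line and 61.5% to 73.0% to the right, and Gabra3 makes up 49.0% to 51.5% of the 4 α transcripts in R206W mice and 44.1% to 46.8% in their controls.

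The comparison of P209L mice with their littermates asked whether this substitution alters the subunits at 3 weeks. None of the 7 passed the adjusted threshold in this comparison, against 0.0984% of all genes. Gabra5, whose α5 subunit carries tonic inhibition in pyramidal cells, had the largest difference, with 160% of the control level, followed by Gabra3 with 143%. Both had an unadjusted p under 0.05, which 7.46% of all genes had. Both were also the 2 of 7 subunits whose groups did not overlap, against 24.9% of all genes.

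Gabra3 was at 105, 99.5 and 90.6 TPM in P209L mice and at 77.6 and 60.0 TPM in the controls. All 3 mutants were above both controls, and the log2 difference was 0.52 (SE 0.145, limma, adjusted p = 0.296). Gabra5 was at 52.3, 65.3 and 43.7 TPM in P209L mice and at 40.9 and 26.3 TPM in the controls. The lowest mutant was close to the higher control, and the difference was 0.68 (SE 0.223, limma, adjusted p = 0.418).

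Both differences were smaller without P209L control 2, which was the lower control for both genes. Gabra3 then differed by 0.34 (SE 0.174) and Gabra5 by 0.37 (SE 0.261), neither with an unadjusted p under 0.05, with 1 control left that is taken to vary like the other groups. Without P209L control 1, the values were 0.70 and 0.99. Leaving out P209L 2 as well as P209L control 2, KO control 1 and KO 1 gave 0.33 for Gabra3 and 0.22 for Gabra5.

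**Figure D5:**
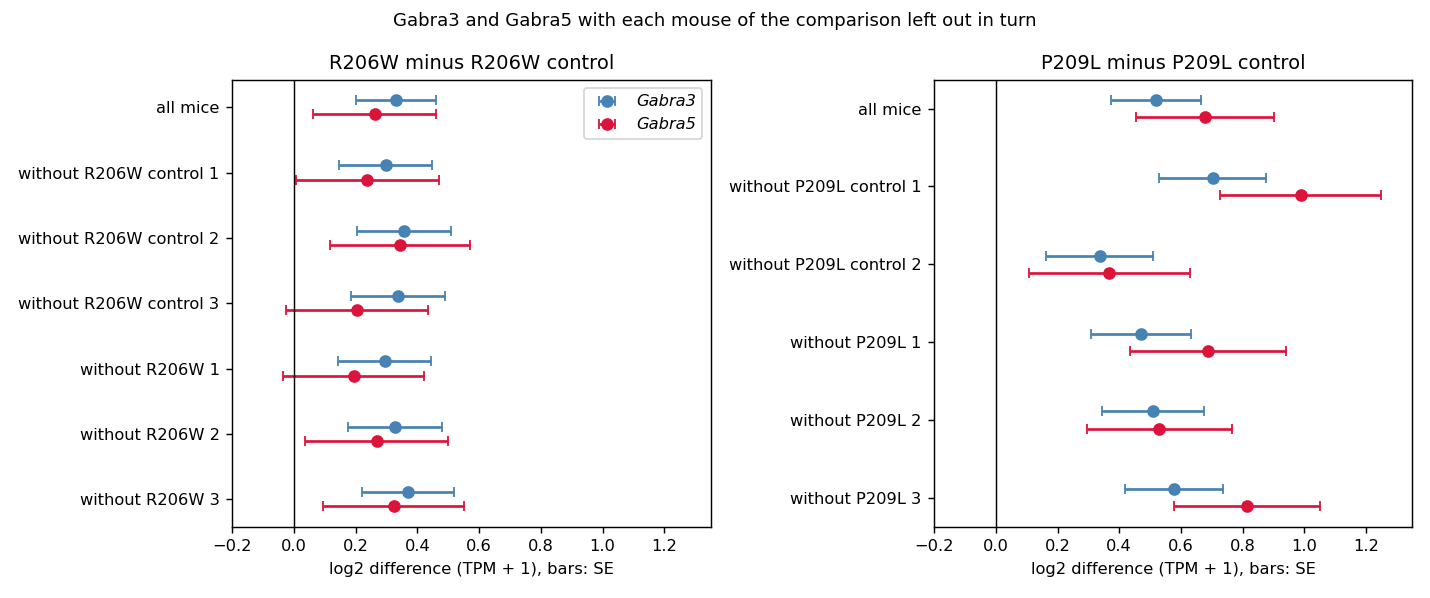
Log2 differences of TPM + 1 (x axis) with SE for Gabra3 and Gabra5 in R206W mice (left) and P209L mice (right), with all mice and with each mouse of the comparison left out in turn (y axis). All values lie above 0; in the P209L comparison they run from 0.34 to 0.70 for Gabra3 and from 0.37 to 0.99 for Gabra5, with the ends set by the 2 control mice.

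The markers of the hippocampal formation went in both directions among these 5 mice. Spink8, a marker of hippocampal pyramidal cells, was at 7.29, 18.4 and 3.14 TPM in P209L mice and at 2.95 and 0.61 TPM in the controls, so the mice fell in the same order by Spink8 as by Gabra5. Of the 4 markers of the list that were tested, 2 had higher and 2 lower values in P209L mice. Prox1 was at 1.59, 1.77 and 1.40 TPM in P209L mice and at 1.82 and 2.05 TPM in the controls. The list as a whole did not follow Spink8: its 6 markers summed to 25.2, 51.5 and 21.3 TPM in P209L mice and to 26.5 and 30.5 TPM in the controls, and none was at 0. All 8 oligodendrocyte markers had an unadjusted p under 0.05 (limma, 7.46% of all genes) and lower values in P209L mice. Their sums were 2557 to 3653 TPM against 4229 and 6318 TPM, with a median log2 difference of -0.84. None of these 8 was called, and the control sum of 6318 TPM was that of P209L control 2. The part of these markers in the subunit differences was not tested.

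The other 5 subunits gave smaller or more variable differences in P209L mice. Gabra2 was at 21.1 to 25.9 TPM against 19.6 and 21.7 TPM (0.18, SE 0.109, limma, adjusted p = 0.791). Gabrb1 was at 15.4 to 17.7 TPM against 12.7 and 15.7 TPM (0.24, SE 0.168, limma, adjusted p = 0.844), and Gabrb2 at 28.3 to 41.8 TPM against 23.5 and 30.3 TPM (0.32, SE 0.234, limma, adjusted p = 0.854). Overlap with the controls was present for each of these 3 genes. Over all alternatives, Gabra2 ran from 0.050 to 0.26, Gabrb1 from 0.072 to 0.38 and Gabrb2 from 0.15 to 0.50.

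Gabrd, the gene of the extrasynaptic δ subunit, was the 1 subunit with a negative difference: 40.8, 32.9 and 60.4 TPM in P209L mice and 56.5 and 65.7 TPM in the controls. P209L 3 lay within the control range, and the log2 difference was -0.48 (SE 0.263, limma, adjusted p = 0.751). Without P209L 2 it was -0.29, and over all alternatives it ran from -0.72 to -0.18. Gabra4, whose product often pairs with δ, was at 49.3 to 62.5 TPM against 47.8 and 60.1 TPM (0.0068, SE 0.140, limma, adjusted p = 1). Over the 7 subunits the median log2 difference was 0.24, against 0.016 over all genes.

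As shares of the 4 α transcripts, Gabra3 made up 41.5% to 45.3% in P209L mice and 38.7% to 39.1% in the controls, without overlap. Gabra5 made up 23.3% ± 3.63 (SD, n = 3) against 18.8% ± 2.35 (SD, n = 2), with overlapping ranges. The share of Gabra4 was lower without overlap, with 20.5% to 28.7% against 30.0% to 31.1%. The 4 shares have a fixed total, and the level of Gabra4 was at 100% of the control level.

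In R206W mice, the other knockin line, the question was the same at 8 weeks, and Gabra3 stood out among the 7 subunits. It was at 126% of the control level, while Gabra5 was at 120% and the other 5 lay between 92.2% and 106%. No subunit passed the adjusted threshold, against 0.0369% of all genes. Gabra3 was the 1 subunit with an unadjusted p under 0.05 (2.19% of all genes) and the 1 subunit whose groups did not overlap (16.2% of all genes).

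Gabra3 was at 145, 138 and 130 TPM in the 3 R206W mice and at 104, 113 and 111 TPM in the 3 controls. Its lowest mutant value was above every other mouse of the series, and the log2 difference was 0.33 (SE 0.130, limma, adjusted p = 1). Leaving out each mouse of this line in turn kept the difference between 0.29 and 0.37. With sample weights, which gave mice unequal influence (KO control 1 had the lowest weight, 0.0818, and KO control 2 the highest, 4.05), the same difference (0.34) had an adjusted p of 0.0320. Over the other alternatives the adjusted p did not fall to 0.05.

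Gabra5 was at 48.9, 44.1 and 40.8 TPM in R206W mice and at 35.7, 41.4 and 34.0 TPM in the controls. The lowest mutant was below the highest control (0.26, SE 0.200, limma, adjusted p = 1). The remaining subunits changed places within narrow ranges: Gabra2 was at 24.6 to 27.6 TPM against 25.4 to 26.3 TPM, and Gabrb1 at 26.4 to 29.8 TPM against 26.1 to 28.6 TPM. Gabra4 was at 61.9 to 68.7 TPM against 65.1 to 71.2 TPM, Gabrb2 at 89.6 to 112 TPM against 108 to 113 TPM, and Gabrd at 57.4 to 69.3 TPM against 56.3 to 60.5 TPM. Their log2 differences lay between -0.12 (Gabrb2) and 0.07 (Gabrd), and those of Gabra2 (0.0049) and Gabrb1 (0.0029) were too close to 0 to have a stable sign.

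In the α makeup of the R206W cortex, 3 of the 4 shares did not overlap those of the controls. The 4 shares have a fixed total, so a larger share of a gene lowers those of the others. The levels of Gabra4 and Gabra2 were at 97.5% and 100% of the control levels. Gabra3 made up 50.2% ± 1.24 (SD, n = 3) of the 4 α transcripts against 45.5% ± 1.36, Gabra4 24.2% ± 1.5 against 28.3% ± 1.52 and Gabra2 9.48% ± 0.333 against 10.8% ± 0.325. Gabra5 made up 15.3% to 16.9% against 14.4% to 16.6%, with overlap. With 3 mice against 3, an exact permutation test of such a share cannot reach 0.05, so the shares are given as a description. The sums of the 5 blood markers did not overlap either, at 560 to 693 TPM in R206W mice and 736 to 1252 TPM in controls. Higher sums without overlap were found for excitatory neuron markers (3841 to 4397 against 3749 to 3839 TPM). The same held for astrocyte markers (1388 to 1404 against 1304 to 1323 TPM) and endothelial markers (117 to 124 against 109 to 116 TPM). The sums of the other marker lists overlapped. None of these markers was called, and their part in the result was not tested.

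In KO mice, the question was whether loss of Hnrnph2 transcript goes with altered subunit levels. No subunit was called (limma), against 0.00615% of all genes, a share that is Hnrnph2 alone. None of the 7 had an unadjusted p under 0.05 (4.08% of all genes), and 1 subunit, Gabra2, had groups without overlap (6.25% of all genes). The KO means lay between 87.3% and 108% of the control means, with 6 of 7 below 100%.

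Gabra2 was at 21.3, 24.6 and 22.1 TPM in KO mice and at 24.9, 26.6 and 26.4 TPM in the controls. The highest KO mouse was just below the lowest control, and the log2 difference was -0.19 (SE 0.0977, limma, adjusted p = 0.999). It ran from -0.27 to -0.15 over all alternatives, the latter without KO 1, and was called with sample weights (-0.26, adjusted p = 0.0281). Without KO control 1, it was -0.22 (adjusted p = 0.459).

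The other subunits varied more among KO mice and controls than between them. Gabra5 was at 28.5, 37.5 and 21.4 TPM against 29.0, 37.6 and 33.4 TPM (-0.22, SE 0.200, limma, adjusted p = 0.999), and Gabra3 at 96.8, 103 and 77.0 TPM against 89.6, 114 and 103 TPM (-0.15, SE 0.130, limma, adjusted p = 0.999). Both values moved with single mice. Gabra5 was at -0.020 without KO 3, -0.41 without KO 2 and -0.31 without KO control 1, and Gabra3 at -0.027, -0.24 and -0.24. Gabrb2 was at 57.7 to 111 TPM against 73.5 to 110 TPM, with KO 3 the lowest of all 8-week mice. Gabrb1 spanned 18.3 to 30.0 TPM against 22.2 to 28.7 TPM, and Gabra4 53.2 to 65.7 TPM against 55.6 to 68.5 TPM. Their log2 differences were -0.15, -0.06 and -0.07, and all 3 turned positive without KO 3. Gabrd was at 48.8 to 70.2 TPM against 34.3 to 70.6 TPM (0.16, SE 0.235, limma, adjusted p = 0.999) and turned to -0.15 without KO control 1, which held its lowest value.

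The ranges of all 4 α shares in KO mice overlapped those of the controls. Gabra3 made up 45.2% ± 1.22 (SD, n = 3) of the 4 α transcripts in KO mice and 45.5% ± 0.707 in their controls, and Gabra5 14.1% ± 1.98 and 14.8% ± 0.376. Neither of these differences exceeded the spread between mice. Gabra2 made up 11.2% ± 1.34 and 11.6% ± 0.856. Gabra4 made up 29.5% ± 1.09 in KO mice and 28.1% ± 0.548 in their controls, means that lay further apart than either SD.

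The lines were then compared by the difference between their effects. The KO effect minus the R206W effect was -0.48 for Gabra3 (SE 0.183, limma, adjusted p = 1) and -0.48 for Gabra5 (SE 0.282, limma, adjusted p = 1). None of the 7 passed the adjusted threshold (0.0307% of all genes did), and Gabra3 was the 1 subunit with an unadjusted p under 0.05 (2.29% of all genes). With sample weights the Gabra3 value was -0.55 with an adjusted p of 0.0184. Leaving out each mouse in turn gave -0.57 (without KO control 1) to -0.36 (without KO 3) for Gabra3, and -0.67 (without KO 2) to -0.28 (without KO 3) for Gabra5, which was at -0.57 without KO control 1. The difference was thus not established for either gene by the main test.

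The P209L effect minus the R206W effect was 0.19 for Gabra3 (SE 0.195), 0.42 for Gabra5 (SE 0.300) and -0.56 for Gabrd (SE 0.352). No subunit passed, at an adjusted or an unadjusted p, nor did any gene of the table at the adjusted threshold (0% of 16265, with 647 genes at an unadjusted p under 0.05). Without P209L control 2 and KO control 1, the effects of the knockin lines on Gabra3 differed by 0.0057. The lines were studied at different ages, so allele and age cannot be told apart in this comparison.

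The 2 sets of 8-week wild-type mice served as a measure of the spread between lines. The R206W controls differed from the KO controls by -0.00043 (Gabra2) to 0.28 (Gabrb2) on the log2 scale, and none of the 7 was called at an adjusted or an unadjusted p. No gene of the table was called either (0% of 16265, limma, with 507 at an unadjusted p under 0.05). The median difference was 0.15 over the 7 subunits and 0.13 over all genes. These values moved with KO control 1. Without it, the medians were 0.019 and -0.0016, Gabrb2 differed by 0.13 and Gabrd turned from 0.15 to -0.16, and 0.0246% of all genes were called.

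Further GABA-A subunit genes were examined next. Gabrg1 and Gabrg3 encode γ subunits, and neither was called in a mutant line (limma, 0 at an unadjusted p under 0.05 in each). At 3 weeks, Gabrg1 averaged 7.84 ± 0.389 TPM (SD, n = 2) and in the 8-week controls 12.9 ± 2.25 TPM (SD, n = 6), a log2 difference of -0.64 (SE 0.153, limma, adjusted p = 0.00500). Gabrg1 differed by -0.54 (adjusted p = 0.00174, limma) without KO control 1 and by -0.59 (adjusted p = 0.0655, limma) without P209L control 2, where it no longer passed. Gabrg3 (-0.31, adjusted p = 0.196, limma) did not pass.

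Another 7 subunit genes were below the filter, with mean levels of 0.00118 TPM (Gabrp) to 0.366 TPM (Gabrq). The ρ subunit gene Gabrr2 was at 1.06 TPM or less. Gabra6 reached 3.08 TPM in KO 1 and at most 0.13 TPM in the other mice.

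Proteins that assemble, anchor and move these receptors were listed as 17 genes, all tested, of which none was called in a mutant line (limma, 0 at an unadjusted p under 0.05). In the age comparison 8 of 17 were called lower and none was called higher, against 36.1% of all genes called in either direction. Of all 17, 15 had a negative value and 2 a positive one, with a median of -0.46 against -0.12 over all genes. Without KO control 1, 13 of 17 were called lower (50.3% of all genes called), and without P209L control 2, 2 of 17 (16.7%). The genes called with all mice included Trak1, an adaptor of the family that carries cargo along microtubules (68.3 ± 6.03 against 139 ± 18.2 TPM; -1.01, adjusted p = 0.000267, limma), and Nsf, the ATPase that recycles SNARE complexes (185 ± 0.856 against 371 ± 85.4 TPM; -0.96, adjusted p = 0.00675, limma). Iqsec3, an exchange factor of inhibitory synapses, differed by -0.69 (adjusted p = 0.00457, limma). Trak1 and Iqsec3 passed without either control as well, whereas Nsf did not pass without P209L control 2 (-0.96, adjusted p = 0.0599, limma).

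Of the 9 genes for GABA synthesis, packaging, uptake and breakdown, 5 were called lower at 3 weeks, against 36.1% of all genes called in either direction. All 9 had negative values, and none was called in a mutant line (limma, 1 at an unadjusted p under 0.05, in P209L mice). Gad2, a GABA-synthesizing enzyme, differed by -0.58 (adjusted p = 0.0220, limma), and the GABA transporter Slc6a11 by -0.71 (adjusted p = 0.0109, limma). The amino acid transporter Slc38a1 differed by -0.99 (adjusted p = 0.00194, limma). Of 6 genes of the GABA-B receptor, the metabotropic receptor for GABA, none was called in a mutant line (limma, 0 at an unadjusted p under 0.05). All 6 had negative values at 3 weeks and 3 were called lower: Kctd16 (-1.36, adjusted p = 0.00214, limma), Kctd12 (-0.57, adjusted p = 0.00698, limma) and Gabbr1 (-0.57, adjusted p = 0.0109, limma). The medians were -0.58 and -0.57, against -0.12 over all genes, of which 36.1% were called. Without KO control 1, 8 of 9 and 5 of 6 were called lower, against 50.3% of all genes called. Without P209L control 2, which leaves 1 mouse of 3 weeks, the medians were -0.62 and -0.56. Fewer genes of both lists were then called, and Gad2, Kctd12 and Gabbr1 no longer passed. In both cases 5 of the 6 GABA-B genes had negative values and 1 a positive one. Of 12 interneuron markers, 8 had positive and 4 negative values, with a median of 0.095, and 1 was called lower (Erbb4) and 1 higher (Calb2). Without KO control 1 that median was -0.0031, against -0.18 over all genes, and 3 were called lower and 1 higher. Without P209L control 2 the median was 0.077, with Erbb4 the 1 marker called.

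The subunits also varied together across mice, which is described here without a test because the points share libraries, ages and lines. Over the 17 mice, log2 levels of Gabrb1 and Gabrb2 had a Pearson correlation of 0.94, and 0.67 after the group means were removed. Gabra3 and Gabra5 had 0.54, and 0.88 within groups. Gabra4 and Gabrb2 had 0.85, and 0.88 within groups. Gabrd was apart from the rest, with correlations of -0.46 (Gabra5) to 0.45 (Gabra4).

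Among all genes tested, those whose pattern over the 17 mice was most like that of each subunit were Klhl11 (r = 0.995) and Lin7a (0.995) for Gabrb2, Alkbh8 (0.980) and C330007P06Rik (0.976) for Gabrb1, and Kcnv1 (0.966) and Fmr1 (0.965) for Gabra4. For Gabra3 they were Fgf10 (0.964) and Aida (0.950), and for Gabra5 Glra2 (0.922) and Cdc42 (0.917). For Gabra2 they were Sap30 (0.895) and Zbtb6 (0.872), and for Gabrd Elk3 (0.954) and Afap1l1 (0.953). These genes were picked as the highest of 16265, and the values are a description of these 17 libraries.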

How the data were processed

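Cortical RNA from 17 mice was sequenced after a stranded total RNA library preparation. The authors deposited 1 table of TPM per gene and sample; their processing notes name Trim Galore, STAR 2.7.1a, GATK 4.0.4.0 and RSEM and the build mm10, while the annotation and the strand setting for counting were not given in the sources used here. Each column has the same total, so TPM keeps no depth, and counting error is unknown. Rows of 120 repeated symbols were summed (55573 rows, 55453 symbols). The 16265 genes whose mean TPM reached 1 were tested on log2(TPM + 1) with limma 3.58.1 in R 4.3.3: 6 group means in a single fit, moderated with a mean-variance trend, and Benjamini-Hochberg adjustment over all genes at 0.05. Fold changes on this scale understate those of low genes. Shares are TPM of a subunit over the summed TPM of the α or β subunits described. Locations are from GENCODE M21 (98.3% of symbols matched), and promoters from RefSeq. The script was tested on simulated data.

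The subunits and gene lists were chosen with earlier results of these data known. All 7 subunits were named in every comparison, as were genes of the other lists past the adjusted threshold in a mutant line, up to 4 per list with the smallest p in the age comparison (marker lists in part) and the 2 genes most like each subunit. Some genes of these lists are not reported here. The labels give separate mice; p-values measure the spread between them. No 2 samples had identical values. Alternatives were other pseudocounts (0.1, 0.5), no filter or a filter at 5, median-of-ratios size factors, quantile scaling, leaving out mitochondrial genes, fits to the compared groups alone, a replicate block, sample weights, robust moderation and leaving out mice; 2 joint exclusions of mice were added after seeing the data.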

Additional observations from a re-analysis of the deposited data

How the results depend on the processing

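Groups of 3 mice and of 2 P209L controls limit what could be called, and depth is unknown. In the age comparison, leaving out mice in turn gave 2 to 5 called subunits, 2 without P209L control 2 and 5 without KO control 1. Sample weights called 1 subunit each in KO (Gabra2), in R206W (Gabra3) and in the KO effect minus the R206W effect (Gabra3), and raised the all-gene count in KO from 1 to 2156; KO control 1 had a weight of 0.0818 and KO control 2 of 4.05. Other alternatives called no subunit in a mutant line. Over all alternatives, all-gene counts ran from 2715 to 9471 in the age comparison, 6 to 72 in P209L and 5 to 149 in R206W. The causes were not tested.

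Replicate numbers are shared between groups. Mice of the same number within a line had correlations of -0.11 to 0.33 between their deviations from the group means. Whether they share more than a number was not tested. With the replicate block, 4 subunits were called in the age comparison and 0 in the others. The block turned Gabra4 in P209L to -0.0025 and changed no call of a subunit. It raised the all-gene count in P209L from 16 to 25. The unadjusted p in P209L fell from 0.0859 to 0.0160 for Gabrd and from 0.176 to 0.0490 for Gabrb1 (limma).

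The following differences changed sign. In R206W, size factors gave Gabra2 -0.0012 and Gabrb1 -0.0032, quantile normalization -0.0028 and -0.0019, and removal of mitochondrial genes gave Gabrb1 -0.0012. In P209L, Gabra4 was -0.029 with quantile normalization and -0.027 with sample weights. In the age comparison, Gabra5 was 0.021 with size factors and 0.066 with quantile normalization. In KO, Gabrd was -0.089 with sample weights. Without KO control 1 and P209L control 2, Gabrd was -0.15 in KO, Gabra4 -0.16 in P209L, and Gabra5 0.17 and Gabrd -0.13 in the age comparison. Without KO 1 and P209L 2 as well, Gabrd was -0.15 in KO, Gabra4 -0.094 in P209L, and the P209L effect minus the R206W effect was -0.0035 for Gabra3 and -0.042 for Gabra5.

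Leaving out each mouse gave ranges that crossed 0 for Gabra4 (-0.16 to 0.0091), Gabrb1 (-0.22 to 0.12), Gabrb2 (-0.37 to 0.10) and Gabrd (-0.15 to 0.36) in KO, for Gabra2 (-0.035 to 0.045), Gabra4 (-0.068 to 0.012), Gabrb1 (-0.048 to 0.036) and Gabrd (-0.010 to 0.12) in R206W, for Gabra4 (-0.16 to 0.17) in P209L, and for Gabra5 (-0.40 to 0.22) and Gabrd (-0.020 to 0.24) in the age comparison. None of these was called in the main test. Of the single-gene values under alternatives, 588 kept their direction and side of the threshold, 36 changed sign, 8 lost and 5 gained the call.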
